A study of Sus scrofa with 6 samples.

Results

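The heat shock proteins and DNAJ cochaperones of porcine 2-cell embryos are the 59 genes, of 17678 in the deposited abundance table, whose names begin with HSPA, HSPB, HSPD, HSPE, HSPH, DNAJA, DNAJB or DNAJC. The rule used the name alone and no values, although earlier results of these data were known when it was chosen. HSPBP1 and HSPBAP1 carry the letters of the small heat shock proteins but belong to no HSPB family, and were kept apart. Messenger RNA was selected with oligo(dT) from pools of 20 embryos and sequenced in 3 NC and 3 SIN3A KD replicates. In NC, mature oocytes were injected with a non-specific siRNA, and in SIN3A KD with 3 siRNAs against SIN3A, the scaffold of the SIN3/HDAC complex. Every embryo of both groups was a parthenote, activated by electric pulses and then by cycloheximide with cytochalasin B, and was collected 32 h after activation. The comparison asked which of the chaperone transcripts that a pig embryo holds at this stage differed when SIN3A mRNA was depleted. In pools of whole embryos, fewer cells with a transcript and less of it per cell cannot be told apart. Poly(A) tail length was not measured, so less mRNA and a shorter tail cannot be told apart either after oligo(dT) selection.

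HSP70 proteins bind exposed hydrophobic stretches of unfolded clients and cycle between ATP and ADP. J-domain proteins, the DNAJ families, bring clients to HSP70 and stimulate its ATPase, and the HSP110 proteins exchange the nucleotide so that the client is released. Small heat shock proteins hold unfolding proteins without ATP, while the chaperonin HSPD1 with its lid HSPE1 encloses clients in the mitochondrial matrix. An oocyte stores many of these mRNAs, and the embryo relies on stored RNA until its own genome becomes active.

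SIN3A itself, the targeted gene, was listed at 37361, 33964 and 32404 in the NC replicates and at 3271, 1079 and 4173 in the KD replicates, so the KD mean was 8.22% of the NC mean (log2 fold change -3.81, SE 0.31, adjusted p = 8.45e-06, limma). Judged by the step between low values, the libraries held about 7700000 to 15700000 reads each. Of 10 oocyte markers 8 were found by name, each with a mean of at least 10, and their summed value ran from 66476 to 73039 in NC and from 65957 to 80151 in KD. Of 10 cumulus and granulosa markers 8 were found and 2 had a mean of at least 10, with sums of 35.0 to 39.8 in NC and 26.4 to 42.9 in KD and none at 0 in all libraries. NC replicate 1 stood apart in base composition, with a correlation across genes of -0.37 between its log2 deviation and the GC content of the transcript, against -0.063 to 0.149 in the other libraries. It was the highest library for 16 of 50 tested chaperone genes, 32% of them, as it was for 22% of all tested genes.

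A large share of the chaperone transcript pool came from few genes. Levels are compared between genes as the mean of the 6 libraries per kb of the longest RefSeq mRNA, since the deposited values are not divided by length. DNAJA1, a cytosolic J protein that works with HSP70 on newly made and stressed proteins, was at 4176 per kb, above 99.4% of the tested genes with a known length. HSPE1 followed at 3375 per kb and DNAJB1, the J protein that starts HSP70-driven disaggregation, at 2262 per kb. These 3 genes together made up 40.4% to 45.5% of the summed level per kb of the 59 genes in each library.

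**Figure D1:**
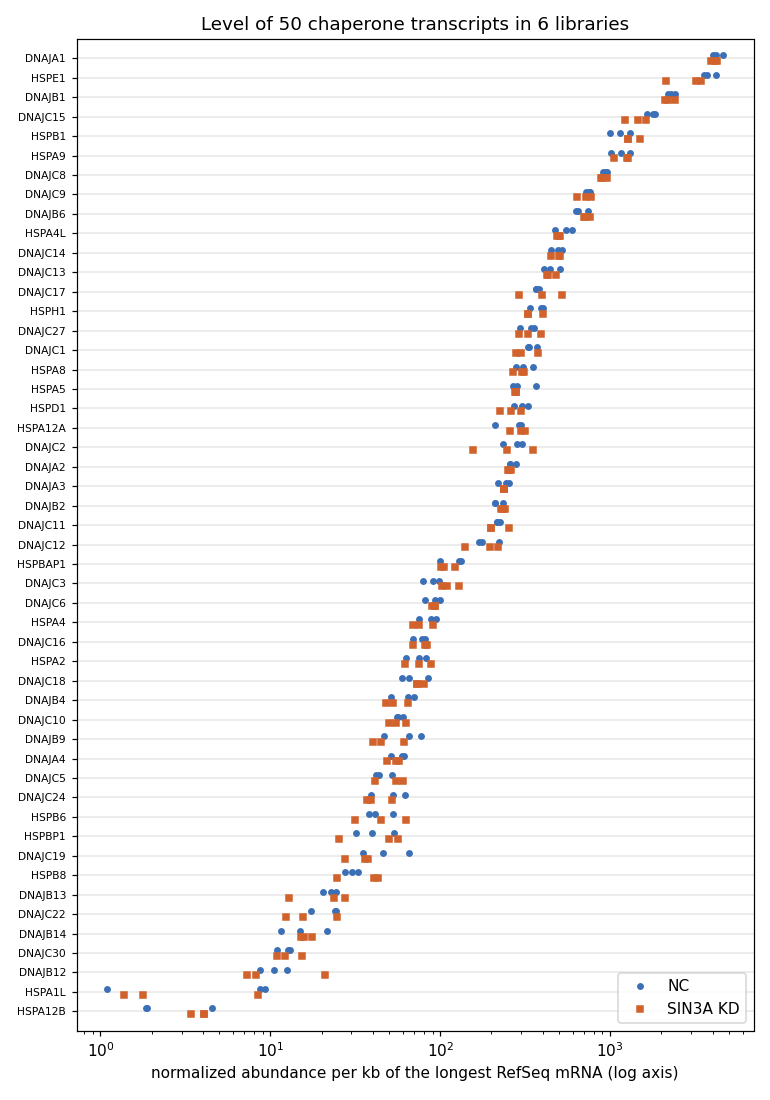
Level of each of the 50 tested chaperone genes in every library, as normalized abundance per kb on a log axis, with NC replicates as blue circles and SIN3A KD replicates as orange squares. The levels span from 3.3 per kb for HSPA12B to 4176 per kb for DNAJA1 (mean of 6), and the groups separate for HSPE1, DNAJC15 and DNAJC3.

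The next genes in the order of level were DNAJC15 at 1594, HSPB1 at 1247, HSPA9 at 1176, DNAJC8 at 920, DNAJC9 at 725 and DNAJB6 at 696 per kb. HSPB1 and HSPA9 could not be ordered by their replicates, which ranged from 1012 to 1301 per kb for HSPA9 and overlapped those of HSPB1. The constitutive cytosolic HSP70 gene HSPA8 was lower, at 302 per kb, close to the endoplasmic reticulum (ER) HSP70 gene HSPA5 at 291 per kb and to HSPD1 at 281 per kb. HSPE1 mRNA was thus present at 11.8 to 13.6 times the level per kb of its partner HSPD1 in the NC replicates and at 9.58 to 12.2 times in the KD replicates. Without the division by length DNAJA1 was followed by HSPA4L, HSPA9 and DNAJC13, and 4 of the 8 highest genes were shared by both orders.

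None of the chaperone genes passed the test between NC and SIN3A KD. Of the 59 genes, 50 had a mean of at least 10 and were tested with all other genes by limma on log2(value + 1). No member was called at an adjusted p below 0.05, where 19 of 11986 genes were called (0.159%), and none with an absolute log2 fold change above 0.8 as well (0.125% of genes). At an unadjusted p below 0.05 stood 2 of the 50 members, HSPE1 and DNAJC15, which is 4% against 4.61% of all genes. This count rested on the libraries and settings used. It was 7 without NC replicate 3, 3 without KD replicate 3, where the genes were DNAJB9, DNAJC2 and DNAJC5 instead, 4 with a correction for GC content and length added after seeing the data, and 0 without a variance trend. The estimate was above 0 for 21 members and below 0 for 29, with a median of -0.03 against 0.00 for all tested genes. Groups without overlap were found for DNAJC3 with KD higher (2% of members against 4.85% of all genes) and for HSPE1 and DNAJC15 with KD lower (4% against 4.94%).

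In the reported fit, most of the differences were bounded within a 2-fold change. The 95% confidence interval of the log2 fold change lay within -1 and 1, a change of at most 2-fold either way, for 46 of 50 members (92%, against 80.1% of all tested genes), and within -0.5 and 0.5 for 32 (64% against 49.2%). These intervals rest on the variance trend of the fit. Without the trend the SE of HSPE1 was 0.20 in place of 0.14, and that of DNAJC3 0.14 in place of 0.17. In the fit with the trend, the precision followed the level. Among the 15 members with a mean of at least 1000 the SE ran from 0.08 to 0.14. Among the 9 whose rounded mean was under 100 it ran from 0.24 to 0.76. DNAJB13, with a mean just under 100 that rounds to 100, had an SE of 0.25. The intervals that reached beyond a 2-fold change belonged to HSPA1L, HSPA12B, DNAJC19 and DNAJC22, which all had a mean under 100.

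**Figure D2:**
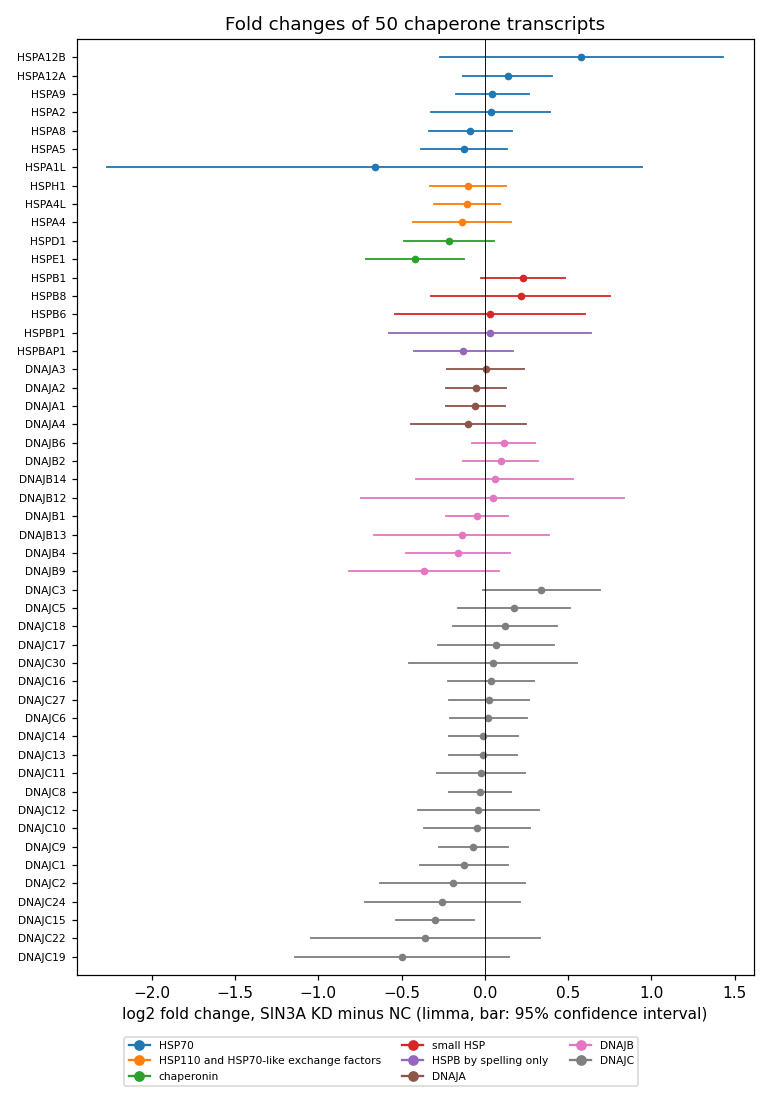
Log2 fold change of SIN3A KD over NC with its 95% confidence interval for the 50 tested chaperone genes, coloured by class and ordered within the class, from the limma fit on 3 and 3 libraries. The interval covers 0 for all genes except HSPE1 and DNAJC15, and no gene passes the adjusted threshold.

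HSPE1 and DNAJC15, the 2 members with an unadjusted p below 0.05 in limma, both encode mitochondrial proteins. They are 4% of the tested members, against 4.61% of all tested genes. HSPE1 (ENSSSCG00000016078), the lid of the chaperonin, was listed at 2381, 2033 and 2114 in the NC replicates and at 1812, 1948 and 1215 in the KD replicates. Every KD value was below every NC value, although KD replicate 2 lay only slightly below NC replicate 2. The log2 fold change was -0.42 (SE 0.14, 95% interval -0.71 to -0.12, unadjusted p = 0.0081, adjusted p = 0.85, limma; exact two-sided permutation p = 0.1, the smallest that 3 against 3 allow). KD replicate 3 carried much of the difference, and without it the log2 fold change was -0.21 (unadjusted p = 0.061, limma). With the correction for GC content and length it was -0.28 (adjusted p = 0.99, limma).

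HSPD1 (ENSSSCG00000016077), the barrel of the chaperonin, was listed at 659, 604 and 546 in NC and at 523, 593 and 446 in KD, so that the groups overlapped at KD replicate 2. Its log2 fold change was -0.22 (95% interval -0.49 to 0.05, adjusted p = 0.997, limma), and -0.11 without KD replicate 3. The ratio of HSPE1 to HSPD1 was 3.62, 3.37 and 3.87 in the NC replicates and 3.47, 3.29 and 2.72 in the KD replicates. The ratios overlapped between the groups, with KD replicate 3 the lowest of the 6.

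DNAJC15 (ENSSSCG00000038251), a J protein of the inner mitochondrial membrane, was listed at 1339, 1366 and 1227 in NC and at 1210, 1087 and 916 in KD. All KD values were lower, KD replicate 1 by a small margin. The log2 fold change was -0.30 (SE 0.11, 95% interval -0.53 to -0.06, unadjusted p = 0.016, adjusted p = 0.92, limma; exact permutation p = 0.1), and -0.19 without KD replicate 3 (unadjusted p = 0.096, limma). With the correction for GC content and length, DNAJC15 was at -0.21 (unadjusted p = 0.037, adjusted p = 0.96, limma). Its relative DNAJC19, the J protein of the inner membrane import motor, was listed far lower, at 47.2, 67.7 and 36.2 in NC and 28.3, 38.5 and 36.9 in KD. These replicates overlapped, and the interval of its log2 fold change of -0.50 ran from -1.14 to 0.15. Without NC replicate 2, its highest library, the log2 fold change was -0.26.

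The import-motor and matrix HSP70 gene HSPA9 was listed at 4047, 3618 and 3147 in NC and at 3941, 3902 and 3290 in KD. The groups overlapped fully, with a log2 fold change of 0.04 (95% interval -0.17 to 0.26). DNAJA3, its matrix J protein, had KD values of 630, 632 and 630 within the NC range of 575 to 671. The groups overlapped, with a log2 fold change of 0.00 (95% interval -0.23 to 0.24). DNAJC11, which associates with the inner membrane organizing complex, was listed at 489, 512 and 490 in NC and at 453, 452 and 575 in KD, the KD replicates lying on both sides of NC. DNAJC30, an inner-membrane J protein, was listed at 64.5, 62.5 and 54.2 in NC and at 59.8, 53.8 and 75.0 in KD. Their log2 fold changes were -0.02 and 0.05. Of the 8 tested members of the 10-gene mitochondrial list, 3 estimates were above 0 and 5 below, with a median of -0.12 and 0 called.

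**Figure D3:**
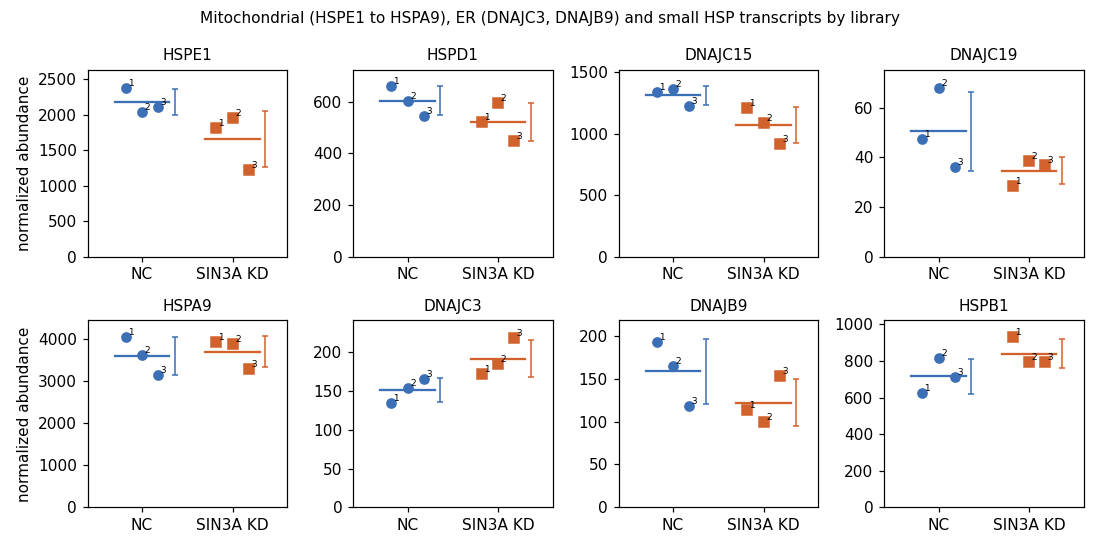
Normalized abundance in each library for mitochondrial members (HSPE1, HSPD1, DNAJC15, DNAJC19, HSPA9), ER members (DNAJC3, DNAJB9) and the small heat shock protein gene HSPB1, with replicate numbers beside the points, group means as lines and SD as bars (3 libraries per group). The NC and KD points separate for HSPE1, DNAJC15 and DNAJC3, and KD replicate 3 is the lowest library for HSPE1, HSPD1 and DNAJC15.

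In the ER, the J proteins DNAJC3 and DNAJB9 had estimates of opposite sign, and neither passed the test. DNAJC3 (ENSSSCG00000026082), the lumenal cochaperone known as P58IPK, was listed at 135, 154 and 166 in NC and at 172, 185 and 219 in KD. All KD values were above all NC values, with a log2 fold change of 0.34 (SE 0.17, 95% interval -0.01 to 0.69, unadjusted p = 0.057, adjusted p = 0.997, limma; exact permutation p = 0.1). With the correction for GC content and length, DNAJC3 was at 0.39 (unadjusted p = 0.025, adjusted p = 0.87, limma). DNAJB9 (ERdj4), which assists ER-associated degradation, was listed at 193, 165 and 118 in NC and 113, 100 and 153 in KD. The groups overlapped, and its log2 fold change was -0.36 (95% interval -0.82 to 0.09). It was -0.21 without NC replicate 1, -0.24 without KD replicate 2 and -0.56 without NC replicate 3.

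HSPA5, the ER HSP70 known as BiP, was listed at 937, 721 and 683 in NC and at 709, 709 and 703 in KD. The KD values lay inside the NC range, whose top was NC replicate 1, and the log2 fold change was -0.13 (95% interval -0.39 to 0.13). DNAJC10, the ER disulfide reductase, was listed at 221, 208 and 204 in NC and at 202, 184 and 230 in KD. DNAJC16 was listed at 551, 491 and 577 in NC and at 492, 593 and 578 in KD, and DNAJC1, an ER-membrane J protein, at 707, 692 and 786 in NC and at 798, 586 and 635 in KD. The groups overlapped for all 3 genes, whose log2 fold changes were -0.04, 0.04 and -0.12. HSPA13, the remaining ER member with a value, had a mean of 9.28 and was not tested. The 6 tested members of the 9-gene ER list had a median of -0.08, with 2 estimates above 0, 4 below and 0 called. DNAJB11 is also on that list and was tested, but it has no name in the deposited list and is no member. Its log2 fold change was 0.12.

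None of the 3 tested small heat shock protein genes passed, and their estimates were above 0, that of HSPB6 only slightly. HSPB1 (HSP27) was listed at 624, 815 and 714 in NC and at 930, 794 and 792 in KD. NC replicate 2 lay inside the KD range, and the log2 fold change was 0.23 (95% interval -0.02 to 0.48, adjusted p = 0.997, limma). Its mRNA has a GC content of 68.6%, the highest of the members. The log2 fold change was 0.13 without NC replicate 1, and 0.20 (SE 0.09, unadjusted p = 0.048, adjusted p = 0.999, limma) with the correction for GC content and length. HSPB8, the partner of BAG3 in autophagy of aggregates, had values of 56.2 to 67.7 in NC and 50.5 to 88.5 in KD. Its log2 fold change was 0.21 (95% interval -0.32 to 0.75). HSPB6 had values of 56.3 to 77.9 in NC and 46.4 to 92.8 in KD. Its log2 fold change was 0.03 (95% interval -0.54 to 0.60), and -0.06 without NC replicate 1. HSPB3, HSPB7 and HSPB11, the last a part of the intraflagellar transport machinery, had means of 4.18, 1.37 and 2.90 and were not tested.

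The list of stress genes also held no called gene. It includes DNAJB1, HSPH1 and HSPB1, which heat shock induces in many cells, and also HSPA2 and HSPA1L, HSP70 genes known mainly from the testis. DNAJB1 was listed at 3154, 2982 and 2861 in NC and at 2723, 2866 and 3122 in KD, so that the ranges overlapped nearly in full. Its log2 fold change was -0.05 (95% interval -0.24 to 0.14). HSPH1, the inducible HSP110, was listed at 1414, 1221 and 1449 in NC and 1182, 1188 and 1438 in KD, with a log2 fold change of -0.10 (95% interval -0.33 to 0.13). Of the 8 genes of the list, HSPA1A, HSPA1B and HSPA6 were not found by name, and the 5 found were HSPB1, DNAJB1, HSPH1, HSPA2 and HSPA1L. Their estimates were above 0 for 2 and below for 3, with a median of -0.05.

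The inducible HSP70 gene itself stands in the table without a name and is therefore no member. Its identifier is given as HSP70.2 by the reference, where HSPA1A and HSPA1B are other names of the gene. It was listed at 2778, 3749 and 4244 in NC and at 2708, 3055 and 4268 in KD, which overlap, with a log2 fold change of -0.11 (95% interval -0.43 to 0.22). At 1800 per kb it stood between DNAJB1 and DNAJC15. HSPA1L, a neighbour whose RefSeq gene spans it on chromosome 7 on the other strand, was listed at 3.13, 24.9 and 26.5 in NC and at 3.89, 5.04 and 24.1 in KD. High and low values stood in both groups, and the interval of its log2 fold change of -0.66 ran from -2.27 to 0.94. Leaving out 1 library moved it between -0.19 (without NC replicate 3) and -1.56 (without NC replicate 1). Of the 31-base words of the HSPA1L mRNAs 24.8% occur in transcripts of other genes, as do 14.6% of those of HSP70.2, so the split of reads between such genes is uncertain.

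Heat shock element matches were searched in the 300 bases before the start of the longest RefSeq mRNA of each gene, on both strands of Sscrofa11.1. The 3-unit element, made of GAA, TTC and GAA with 2 bases between neighbours, is a form bound by the heat shock factor HSF1. It occurred in 74 of 20667 such windows (0.358%) and in those of 4 members (6.78% of 59). These are shown because they hold the full element inside the window. HSPA8 holds it once on each strand. The HSPA5 line shows instead the ER stress element, CCAAT and CCACG with 9 bases between them, found in 14 windows (0.0677%) and in that of 1 member. The printed HSPA5 stretch lies before the start of the longest HSPA5 mRNA, but it overlaps an exon of another HSPA5 transcript in the annotation, so it is not upstream of every annotated start. Capitals mark the element, all sequences are written 5′ to 3′ on the strand of the gene, and they were read from the RefSeq assembly Sscrofa11.1.
HSPD1, chr15:101373696-101373748, minus strand: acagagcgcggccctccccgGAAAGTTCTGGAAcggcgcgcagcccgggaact
HSPA8, chr9:49986950-49987002, minus strand: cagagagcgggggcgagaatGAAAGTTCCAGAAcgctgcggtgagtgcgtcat
HSPA8, chr9:49986783-49986835, minus strand: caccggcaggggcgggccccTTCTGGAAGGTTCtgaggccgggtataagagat
DNAJB6, chr18:1499945-1499997, minus strand: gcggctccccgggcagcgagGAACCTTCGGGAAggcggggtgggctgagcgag
DNAJB14, chr8:120567207-120567259, plus strand: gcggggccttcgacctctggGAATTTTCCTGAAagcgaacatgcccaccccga
HSPA5, chr1:265934948-265934976, minus strand: cctagCCAATCAGCGGCCTCCACGacggg

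The HSPD1 element lies 230 to 218 bases before the start of HSPD1 and between that gene and HSPE1, which are transcribed away from each other on chromosome 15 with 520 bases between their starts (101373498 and 101374019). Counted from the HSPE1 start, the same element begins 291 bases away. The shorter matches GAANNTTC and TTCNNGAA lie inside the 3-unit element and overlap it where it occurs. They stood in the windows of 17 members (28.8%) against 12.8% of all windows, HSPE1, HSPB1, HSPH1, HSPA4, HSPA4L and DNAJA1 among them. The HSPE1 match covers the same bases as the GAANNTTC match of HSPD1, so that site was counted for both genes. The 16 tested members with a short match had log2 fold changes from -0.66 to 0.23 with a median of -0.08, and the 34 tested members without one from -0.50 to 0.58 with a median of -0.02. The 4 members with the full element inside the window had log2 fold changes from -0.22 (HSPD1) to 0.11 (DNAJB6). HSPE1, for which the shared element crosses the window edge, had a log2 fold change of -0.42. A match is a description of these letters in the window and no more. The embryos were sampled before the stage at which the paper places genome activation. Whether any element was in use was not tested.

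**Figure D4:**
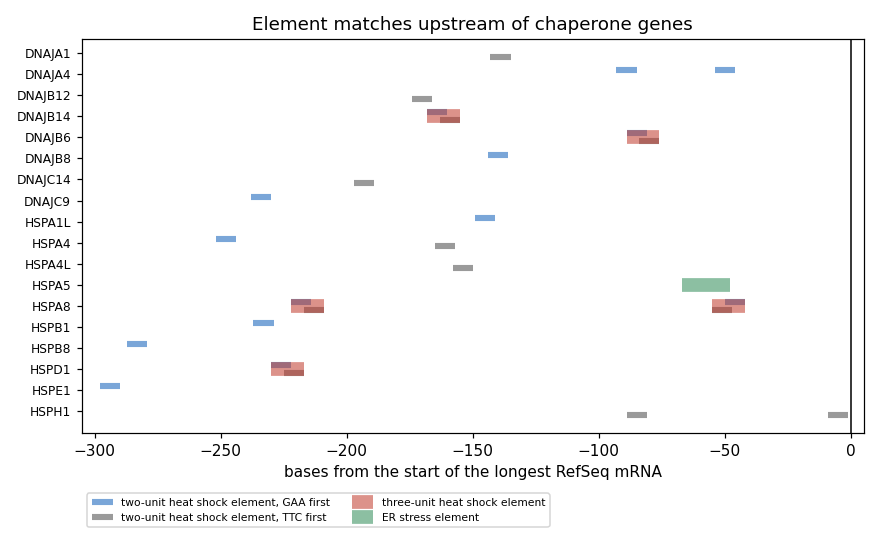
Positions of element matches in the 300 bases before the start of the longest RefSeq mRNA, by gene, with the 3-unit heat shock element in red, the shorter forms in blue and grey and the ER stress element in green. The 3-unit element appears in DNAJB14, DNAJB6, HSPA8 (2 matches) and HSPD1, and the matches of different genes lie at different distances from the start.

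No cytosolic HSP70 or HSP110 gene was called. HSPA8 was listed at 790, 689 and 625 in NC and at 696, 676 and 602 in KD, which overlap, with a log2 fold change of -0.09 (95% interval -0.34 to 0.16). The exchange factors HSPA4L, HSPA4 and HSPH1 all had estimates below 0, between -0.14 and -0.10, and HSPA4L was the most abundant of them at 4510 ± 532 in NC and 4168 ± 74 in KD (SD, n = 3 each). HSPA2, the HSP70 of spermatogenesis, was listed at 175, 230 and 209 in NC and at 174, 210 and 247 in KD. These values overlapped, with a log2 fold change of 0.03. Of the divergent genes, HSPA12A had a log2 fold change of 0.14, and HSPA12B, the lowest tested member per kb, was listed at 13.8, 13.9 and 33.9 in NC and at 30.2, 30.4 and 25.4 in KD. NC replicate 3 of HSPA12B was above every KD value, and the interval of its log2 fold change of 0.58 ran from -0.27 to 1.43. It was 0.99 without NC replicate 3 and 0.37 without NC replicate 1.

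No DNAJA or DNAJB gene was called, and their precision differed, with SE from 0.08 for DNAJA1 to 0.37 for DNAJB12. DNAJA1 was listed at 12391, 11280 and 10840 in NC and at 11422, 11175 and 10541 in KD. The values overlapped, and its log2 fold change of -0.06 had an interval of -0.23 to 0.12. DNAJB6, a suppressor of polyglutamine aggregation, was listed at 2988, 3502 and 3049 in NC and at 3597, 3362 and 3328 in KD, with NC replicate 2 inside the KD range. Its log2 fold change was 0.11 (95% interval -0.08 to 0.30). DNAJA2 at -0.05, DNAJA4 at -0.10 and DNAJB2 at 0.10 also had intervals within -0.5 and 0.5. DNAJB4 was at -0.16, and DNAJB12 and DNAJB14, J proteins of the ER membrane, at 0.05 and 0.06. DNAJB13, a J protein of motile cilia and sperm flagella, was listed at 104, 110 and 93.7 in NC and at 125, 109 and 58.8 in KD, with KD replicate 3 far below the rest. DNAJB5, DNAJB7 and DNAJB8 had means of 4.88, 0.40 and 1.87 and were not tested.

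J proteins with a particular client or place made up the rest of the DNAJC class. DNAJC8, a spliceosome component, was listed at 2030, 1973 and 1924 in NC and at 2037, 1884 and 1895 in KD, and DNAJC9, a histone H3 cochaperone, at 1690, 1687 and 1604 in NC and at 1714, 1427 and 1621 in KD. Their log2 fold changes were -0.03 and -0.07, and both pairs of ranges overlapped. DNAJC17, another splicing factor, was listed at 419, 405 and 405 in NC and at 569, 434 and 320 in KD, so that the KD replicates lay on both sides of NC. DNAJC2, which sits on ribosomes with HSPA14, was listed at 657, 505 and 612 in NC and at 533, 335 and 758 in KD, again on both sides. Their log2 fold changes were 0.07 and -0.19. DNAJC24, needed for the diphthamide modification of elongation factor 2, was listed at 135, 116 and 85.4 in NC and at 113, 80.6 and 85.5 in KD. The ranges overlapped, with a log2 fold change of -0.25 (95% interval -0.72 to 0.21).

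The genes of membrane traffic overlapped between the groups. DNAJC13, an endosomal J protein, was listed at 4071, 3518 and 3246 in NC and at 3454, 3852 and 3413 in KD, and DNAJC6, the clathrin-uncoating auxilin, at 776, 675 and 824 in NC and at 777, 775 and 747 in KD. Their log2 fold changes were -0.01 and 0.02. DNAJC5, the cysteine string protein of secretory vesicles, was listed at 237, 293 and 246 in NC and at 339, 311 and 234 in KD, with a log2 fold change of 0.18. Of its 31-base words 30.4% occur in another RefSeq gene, so its reads may be shared. DNAJC14, a J protein of the ER membrane, was listed at 1572, 1742 and 1829 in NC and at 1566, 1760 and 1784 in KD, with a log2 fold change of -0.01. Among the members outside these lists, DNAJC27 was at 0.02 on the log2 scale, DNAJC12, a cochaperone of aromatic amino acid hydroxylases, at -0.04, DNAJC18 at 0.12 and DNAJC22 at -0.36 with an interval of -1.05 to 0.33. Leaving out 1 library moved DNAJC22 between -0.14 (without KD replicate 1) and -0.63 (without KD replicate 2). DNAJC5B and DNAJC28 had means of 2.93 and 4.02 and were not tested. HSPBP1, an HSP70 exchange factor, and HSPBAP1, a binding partner of HSPB1, had log2 fold changes of 0.03 and -0.13.

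The share of each chaperone class was taken within the 59 named genes. Family genes listed without a name are outside this sum, HSP70.2 and HSPA14 among them, so the HSP70 share covers named genes only. HSP70.2 alone ran from 1406 to 2216 per kb between libraries. As a share of the summed level per kb of the 59 genes, the DNAJC class took 27.2% to 29.0% in the 6 libraries, DNAJA 20.3% to 21.4%, DNAJB 14% to 16.8%, HSP70 8.62% to 9.88% and HSP110 3.91% to 4.68%. The chaperonin share, which is mostly HSPE1, was 18.4%, 16.7% and 17.7% in NC and 15.0%, 16.6% and 11.3% in KD. The small heat shock protein share, which is mostly HSPB1, was 4.35%, 5.96% and 5.47% in NC and 6.98%, 6.08% and 6.40% in KD. Neither pair of groups overlapped, by a narrow margin in both cases, while the values of HSPB1 itself did overlap. Among single tested genes, 4.85% had groups without overlap with KD higher and 4.94% with KD lower. No such rate was taken for class shares, so these percentages are no background for them. Shares of one sum are not independent of each other.

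**Figure D5:**
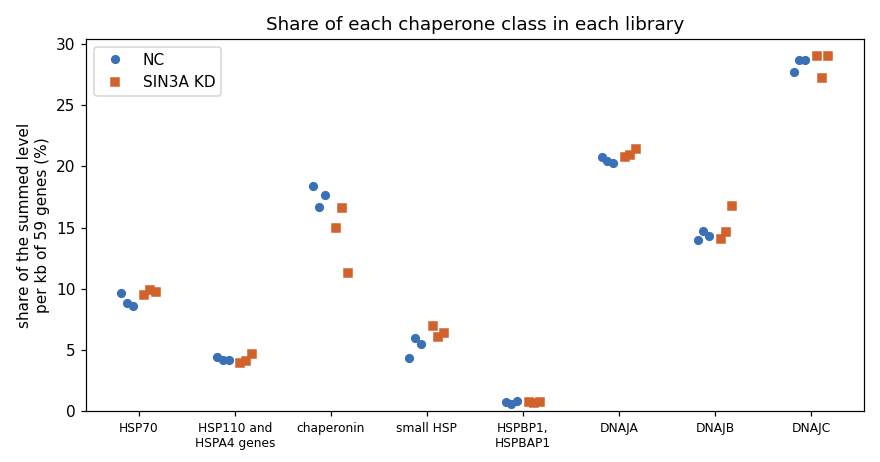
Share of each chaperone class in the summed level per kb of the 59 genes, in percent from 0, for each NC (blue circles) and SIN3A KD (orange squares) library. The chaperonin share runs from 16.7% to 18.4% in NC and from 11.3% to 16.6% in KD, and the DNAJA share stays between 20.3% and 21.4%.

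Other family genes and partners also gave no call. Besides HSP70.2, the reference names HSPA14, DNAJB11, DNAJC7, HSP90AB1 and HSP90B1 among the tested identifiers without a name in the table, and their log2 fold changes were 0.10, 0.12, 0.06, 0.03 and 0.10. DNAJC25 and DNAJC4 had means of 9.64 and 5.12. Of 79 listed partners, 74 were found and 72 tested, with 42 estimates above 0, 30 below, a median of 0.03 and 0 called, and 1 had an unadjusted p below 0.05 in limma. That gene was CCT8, a subunit of the cytosolic chaperonin, which was listed at 3531, 3231 and 2999 in NC and at 4023, 3951 and 3536 in KD (log2 fold change 0.24, adjusted p = 0.97, limma). Every KD value of CCT8 was above the NC values, by a narrow margin at KD replicate 3.

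The regulators of the heat shock and unfolded protein responses were within the partner lists. HSF1, the factor that binds the heat shock element, was listed at 642, 858 and 836 in NC and at 859, 889 and 775 in KD, which overlap, with a log2 fold change of 0.12 (95% interval -0.14 to 0.38). HSP90AA1, the cytosolic HSP90 that holds HSF1 inactive in unstressed cells, was higher per kb than every member, at 6040 per kb, and had a log2 fold change of 0.06 (95% interval -0.18 to 0.30). The 18 tested genes of ER folding and the unfolded protein response had a median of 0.04, with ATF6 at -0.06, ERN1 at 0.16 and HERPUD1 lowest at -1.06. HERPUD1 was listed at 23.4, 12.8 and 24.0 in NC and at 6.59, 20.7 and 4.69 in KD, and its interval of -2.22 to 0.11 covered 0. The HSP90 list of 16 genes had a median of 0.02, with the HSP90 activator AHSA1 at 0.13.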

How the data were processed

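Polyadenylated RNA of 3 NC and 3 SIN3A KD replicates was sequenced. The authors quantified reads on Sscrofa11.1 transcripts with Salmon 0.14.1 and deposited 1 table of signal values per Ensembl gene, normalized by DESeq2 size factors. Of the low values per library, 63.5% to 74.2% lay within 0.1 of a whole multiple of 1 step. The rest did not, so the values were not turned back into reads or given a count test. The members, lists and tests were chosen with earlier results of these data known. The test was limma 3.58.1 under R 4.3.3 (lmFit, eBayes with a variance trend) on log2(value + 1), for genes whose mean over the 6 libraries was 10 or more, with Benjamini-Hochberg adjustment over 11986 genes, and fold changes of low genes are understated on this scale. The fit was tested on simulated data. All 59 members and 10327 of 11986 tested genes (86.2%) matched RefSeq Sscrofa11.1, which gave positions, lengths and upstream bases. The deposited list leaves 3575 genes without a name. All members may be named. Values per library were given for the 8 highest members per kb, the 5 smallest p in each direction, and lists of stress, ER, mitochondrial, RNA and vesicle genes. CCT8 and HERPUD1 were named after their values were seen. Alternatives were pseudocounts of 0.1 and 10, quantile normalization, TMM-like rescaling, no filter or a minimum mean of 100, no variance trend, a robust eBayes step, a replicate block, leaving out each library, and, added after seeing the data, a GC and length correction. Spike-in RNA was not used here.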

Additional observations from a re-analysis of the deposited data

How the results depend on the processing

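No member was called under any of the 18 settings, and the lowest adjusted p of any member was 0.208 (HSPE1 with the replicate block, limma). Same-numbered replicates had correlated deviations of 0.109, 0.111 and 0.087, and different-numbered ones of -0.083 to -0.021, so that every library correlated best with its own number. The deviations were taken from the mean of each group, so the correlations of a library with the other group must nearly cancel. The negative values are therefore no separate evidence. The match of numbers is a hint from the data and not the design, and the reported fit did not take the numbers as pairs. The replicate block gave 26 calls among all genes against 19. The count over all genes was 0 without a variance trend, 11 to 19 when single libraries were left out, 35 with the GC and length correction and 59 with that correction and the replicate block. SIN3A had a log2 fold change of -3.81 when the trend was dropped and when eBayes was robust, but adjusted p values of 0.423 and 0.469. The causes were not tested. Of 840 member comparisons, 782 kept their direction and side of the threshold and 58 changed sign, all of them with an absolute log2 fold change of at most 0.194 in the reported fit. Under the correction for GC and length, and equally when the block joined it, DNAJA1 came to 0.0063, DNAJA3 to -0.023, DNAJC10 to 0.0053, DNAJC12 to 0.039, DNAJC14 to 0.0044, DNAJC8 to 0.018, HSPB6 to -0.00072 and HSPBP1 to -0.036, and with quantile normalization DNAJC11 came to 0.0035. Leaving out single libraries gave -0.06 to 0.051 for DNAJA3, -0.42 to 0.33 for DNAJB12, -0.35 to 0.19 for DNAJB13, -0.15 to 0.29 for DNAJB14, -0.13 to 0.031 for DNAJC10, -0.14 to 0.037 for DNAJC11, -0.17 to 0.15 for DNAJC12, -0.085 to 0.078 for DNAJC13, -0.07 to 0.05 for DNAJC14, -0.03 to 0.12 for DNAJC16, -0.14 to 0.28 for DNAJC17, -0.47 to 0.11 for DNAJC2, -0.09 to 0.12 for DNAJC27, -0.086 to 0.15 for DNAJC30, -0.061 to 0.083 for DNAJC6, -0.13 to 0.0063 for DNAJC9, -0.027 to 0.23 for HSPA12A, -0.088 to 0.16 for HSPA2, -0.22 to 0.011 for HSPA5, -0.17 to 0.0011 for HSPA8, -0.049 to 0.13 for HSPA9, -0.21 to 0.28 for HSPB6 and -0.18 to 0.38 for HSPBP1. Genes with a mean under 100 had standard errors of 0.24 to 0.76, and the part of depth in them was not tested.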
